A study of Caenorhabditis elegans with 4 samples.

Results

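Autosomal promoter peaks of a single gene are calls made on UNC-39 chromatin immunoprecipitation data, and may include background. They lie next to the start of 1 protein-coding gene each, on a chromosome other than X. They were taken from the pooled list of peaks and background on the ce11 assembly: the summit, the base with the highest signal in a peak, had to lie in the window reaching 1000 bp upstream and 200 bp downstream from the transcript starts of exactly 1 protein-coding gene of the Ensembl annotation. This gave 2711 of the 12797 pooled peaks, or 26.5% of the 10244 autosomal ones, at 2394 genes. Every peak spanned 364 bp. The label "promoter" is positional: 1120 of the summits (41.3%) lay between protein-coding genes, 484 in an intron and 383 in a coding exon of the assigned gene, 122 in its 5′ UTR and 4 in another exon of it, and 421 lay in an exon and 177 in an intron of another protein-coding gene.

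The data are chromatin immunoprecipitation sequencing (ChIP-seq) of 4 biological replicates, all of 1 group: whole worms of Caenorhabditis elegans strain OP186, genotype unc-119(ed3) III; wgIs186, collected as L3 larvae, with both sexes pooled (mixed sex) and their age unknown. All 4 carried the transgene wgIs186, from which UNC-39 is made with GFP and FLAG at its C terminus, in the unc-119(ed3) background. Sonication with a microtip broke the chromatin, and unc-39 is the only antibody entry. The labels name a control experiment, not analysed here, and there was no second condition, so comparisons were made only between kinds of peaks within each replicate. A whole-worm sample averages over tissues, and peaks in a few cells cannot be told apart from weak peaks in many.

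UNC-39 belongs to the sine oculis (SIX-type) family of homeodomain transcription factors, which bind DNA through the homeodomain and a neighbouring SIX-type domain and act on the differentiation of mesoderm and of neurons. In the worm, unc-39 is known for its roles in mesodermal cells, in the migration of cells and axons, and in the fate of particular interneurons. A promoter in this animal often lies further upstream than the annotation shows, because a spliced leader RNA replaces the first part of most messages, so that an annotated start can be a splice site.

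Sequences of 101 bp centred on the summit are shown for 10 members of the thresholded list described next, chosen after the sequences had been seen, as examples of its members with a spliced leader gene, with a recurring word and with neither. Letters are from the RefSeq WBcel235 genome, the same assembly as ce11, and run 5′ to 3′ on the strand of the gene. Capitals in the H41C03.3 line mark the 44 bases that belong to sls-2.1, a gene for an SL2 spliced leader RNA. In the other lines capitals mark the word ACACGCT (reverse complement AGCGTGT) or, at eelo-2 and ntl-11, the word CTGCGTC (reverse complement GACGCAG); a line with no capitals holds neither.
H41C03.3, chrII:5844808-5844908, plus strand: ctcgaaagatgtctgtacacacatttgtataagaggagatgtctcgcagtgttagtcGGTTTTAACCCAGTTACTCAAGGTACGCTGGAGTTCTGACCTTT
cdc-48.1, chrII:10563519-10563619, minus strand: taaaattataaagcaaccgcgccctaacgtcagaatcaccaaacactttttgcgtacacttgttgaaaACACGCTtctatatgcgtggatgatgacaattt
rpl-3, chrIII:3867555-3867655, plus strand: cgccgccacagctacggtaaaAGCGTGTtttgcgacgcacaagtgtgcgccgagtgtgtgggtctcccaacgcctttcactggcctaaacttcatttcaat
rpl-35, chrIII:7854650-7854750, plus strand: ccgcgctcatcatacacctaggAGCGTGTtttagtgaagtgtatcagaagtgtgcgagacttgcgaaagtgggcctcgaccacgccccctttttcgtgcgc
cox-5A, chrIII:12905099-12905199, plus strand: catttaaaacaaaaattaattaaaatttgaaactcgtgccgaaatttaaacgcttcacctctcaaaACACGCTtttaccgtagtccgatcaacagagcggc
eelo-2, chrIV:17249898-17249998, plus strand: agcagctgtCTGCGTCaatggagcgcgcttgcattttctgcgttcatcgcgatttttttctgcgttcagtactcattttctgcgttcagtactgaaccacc
ntl-11, chrIV:15471574-15471674, minus strand: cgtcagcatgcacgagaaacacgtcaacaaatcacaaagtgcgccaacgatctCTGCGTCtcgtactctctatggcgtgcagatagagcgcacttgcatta
drap-1, chrV:9731187-9731287, plus strand: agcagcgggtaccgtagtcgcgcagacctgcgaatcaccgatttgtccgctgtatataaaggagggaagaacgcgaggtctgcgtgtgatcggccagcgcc
cbp-1, chrIII:9765605-9765705, plus strand: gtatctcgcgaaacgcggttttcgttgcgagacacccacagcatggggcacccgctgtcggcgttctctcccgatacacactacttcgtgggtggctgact
tomm-20, chrV:12343694-12343794, minus strand: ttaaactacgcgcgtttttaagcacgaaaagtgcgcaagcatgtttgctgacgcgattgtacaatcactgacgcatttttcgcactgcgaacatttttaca

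The thresholded list, made by the authors from the agreement in rank between replicates, held 21 of the 2711 members (0.775%, 95% exact interval 0.480 to 1.18), against 0.547% of all autosomal pooled peaks. This list was the 110 strongest peaks of the pooled list, so membership in it follows from the pooled signal. The members in it had a median signal of 48.7 (41.96 to 84.5), where the signal is the authors' own value per peak and all members had a median of 19.7, and they stood at pooled ranks from 29 to 109. Reading the deposited q column as −log10, 12 members (0.443%) passed a q of 0.05, and all of these were among the 21. The share of all autosomal pooled peaks that passed this q was not counted, so the members cannot be set apart by it. The other 2690 members are read here as a ranking of places.

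The 21 peaks included genes of protein synthesis and turnover: rpl-3 and rpl-35, proteins of the large ribosomal subunit, cdc-48.1, an AAA ATPase that extracts ubiquitinated proteins, ubc-3, a ubiquitin-conjugating enzyme, and usp-4, a ubiquitin-specific protease. Mitochondrial functions were present with tomm-20, an import receptor of the outer membrane, and cox-5A, which belongs to the cytochrome c oxidase complex. Regulators of chromatin and transcription were cbp-1, the CBP/p300 acetyltransferase, chd-7, a chromodomain helicase, sor-1, which acts in the silencing of Hox genes, and drap-1, named for a corepressor subunit that acts on the basal transcription machinery. The CCR4-NOT deadenylase gene ntl-11, the heterochronic gene lin-66, the calcium sensor gene ncs-2 and egg-5, which acts at the egg-to-embryo transition, were also present, with H41C03.3, Y39B6A.43, eelo-2, Y39E4B.6, F02E9.5 and Y7A9D.1. All 21 summits lay upstream of the start, 19 of them between protein-coding genes.

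Ranks in the replicates' own lists show how far each replicate carried these peaks. Nuclear peaks were ranked from 1, the strongest, to the end of each list, at 29976, 29980, 13195 and 29501 in replicates 1 to 4. The rank given for a member is that of the strongest overlapping peak. A member with no peak in a replicate is only absent from that list, and some lists may be cut at 30000 peaks. The H41C03.3 peak (chrII:5844676-5845039, 919 bp upstream) ranked 57, 368, 1 and 7 in replicates 1 to 4. The egg-5 peak (chrI:4172005-4172368, 598 bp upstream) ranked 2, 5, 2 and 152. These top members were near the head of every list.

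Among the other strong members, drap-1 (chrV:9731055-9731418, 133 bp upstream) ranked 11, 327, 52 and 67, and ubc-3 (chrI:1697951-1698314, 216 bp upstream) ranked 251, 243, 120 and 459. With H41C03.3 and egg-5, these were the 4 thresholded members within the 1000 strongest nuclear peaks of all 4 replicates. The pooled list held a second peak next to each of H41C03.3 and egg-5 that overlaps the same replicate peaks, which brings the number of members with this support to 6 at 4 genes.

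Several members were high in replicates 1, 3 and 4 and far lower in replicate 2. The cdc-48.1 peak (chrII:10563387-10563750, 162 bp upstream) ranked 46, 9849, 9 and 11 in replicates 1 to 4. For rpl-3 (chrIII:3867423-3867786, 249 bp upstream) the ranks were 97, 5348, 4 and 27. Both genes were thus in the 100 strongest peaks of 3 replicates and much lower in replicate 2.

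The rpl-35 peak (chrIII:7854518-7854881, 434 bp upstream) ranked 81, 8108, 191 and 92, and tomm-20 (chrV:12343562-12343925, 275 bp upstream) ranked 379, 22190, 67 and 354. Ranks of cbp-1 (chrIII:9765473-9765836, 854 bp upstream) were 176, 12683, 222 and 270, and those of Y39E4B.6 (chrIII:13070513-13070876, 61 bp upstream) were 449, 3560, 181 and 81. In all, 7 of the 21 were within the 1000 strongest peaks of replicates 1, 3 and 4 and not of replicate 2; the seventh, ntl-11 (chrIV:15471442-15471805, 129 bp upstream), ranked 93, 899 and 47 in replicates 1, 3 and 4 and had no peak in replicate 2.

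The opposite was seen at a few genes. The ncs-2 peak (chrI:10034940-10035303, 306 bp upstream, in an intron of another gene) ranked 17 in replicate 2 and 4491, 8658 and 3237 in replicates 1, 3 and 4. At usp-4 (chrIV:6756464-6756827, 665 bp upstream) the rank was 86 in replicate 2, 1716 and 2278 in replicates 1 and 4, and replicate 3 had no peak. A place can thus enter the thresholded list with strong support from 1 replicate.

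The other 8 members of the list had mixed support. Peaks at Y39B6A.43 ranked 24, 179 and 347 in replicates 1 to 3, with none in replicate 4, and chd-7 ranked 188, 202 and 251 in replicates 1, 2 and 4, with none in replicate 3. The cox-5A peak ranked 28, 4014 and 46 in replicates 1 to 3, with none in replicate 4, and sor-1 ranked 26, 3703, 2127 and 281. Replicates 2 and 3 both placed eelo-2 at 108, while it ranked 2283 and 2568 in replicates 1 and 4. The last 3 spread widely: lin-66 ranked 1100, 1022 and 138 in replicates 2 to 4, F02E9.5 ranked 2560, 955, 835 and 7260, and Y7A9D.1 ranked 353, 711, 2594 and 1327.

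**Figure D1:**
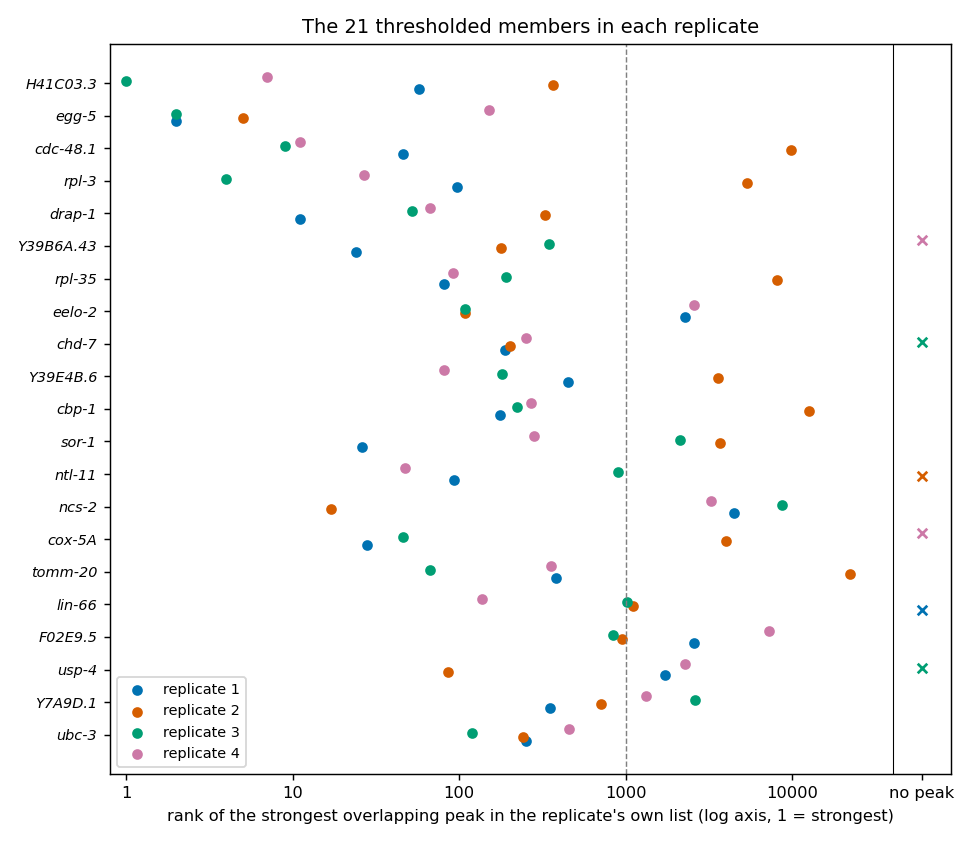
Rank of each of the 21 thresholded members (rows, in order of pooled signal) in each replicate's own list of nuclear peaks, on a log axis where 1 is the strongest; crosses at the right mark replicates with no overlapping peak and the dashed line marks rank 1000. The replicate 2 points of cdc-48.1, rpl-3, rpl-35, Y39E4B.6, cbp-1 and tomm-20 lie from 3560 to 22190, to the right of the other 3 replicates.

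The strongest member and the next one lay beside spliced leader RNA genes, and not only beside the protein-coding gene that the rule assigns. The summit at H41C03.3 was 7 bp from sls-2.1 and that at egg-5 was 19 bp from sls-2.4, both SL2 genes, whose product is added to the downstream messages of operons. Of the 18 annotated sls-2 genes, 8 had a pooled peak with its summit within 300 bp, 3 of these peaks were members, and 4 of the 8 were in the thresholded list. The last of these 3 members was at W06D4.3, 105 bp from sls-2.7, at pooled rank 499. Weaker second members at egg-5 and H41C03.3, at pooled ranks 602 and 750, were also within 300 bp of sls-2.4 and sls-2.1. None of the 12 sls-1 genes, the SL1 copies of a repeated array on chromosome V, had a pooled peak with its summit within 300 bp. Whether reads can be placed at single copies of this array was not tested, so SL1 and SL2 genes cannot be compared here. Over all members, 85 summits (3.14%) were within 300 bp of a tRNA, snRNA, snoRNA or rRNA gene, against 9 of the 100 strongest members and 3 of the 21.

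Beyond the 21, the highest members of the pooled ranking had support from fewer replicates. Y59A8B.24 (pooled rank 112) ranked 728 and 38 in replicates 1 and 2 and had no peak in replicates 3 and 4. F48A11.4 (rank 113) ranked 135, 481 and 2435 in replicates 1, 3 and 4, and Y43F8B.2 (rank 114) ranked 73, 2337 and 3427 in replicates 1, 2 and 4. The chemoreceptor gene sre-23 (rank 126) ranked 72, 18921, 4300 and 157. These places were close in pooled signal (40.9 to 41.7) to ubc-3, the last thresholded member at 41.96.

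A further 7 members outside the thresholded list were among the 1000 strongest peaks of 3 or more replicates, which makes 20 of 2711 members in all, against 0.605% of all autosomal pooled peaks. They included a pair at gei-4, a peak at fkh-7, a forkhead factor gene, and second peaks at egg-5, H41C03.3 and Y39E4B.6. At fkh-7 the ranks were 368, 171 and 375 in replicates 1, 3 and 4, and the summit lay in an exon of fkh-7 itself. The stronger gei-4 peak ranked 362, 578 and 224 in replicates 1, 2 and 4. As many as 170 members overlapped another pooled peak, so the peaks that share a replicate peak are not separate pieces of evidence.

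Most members were outside the 1000 strongest peaks of every replicate. This held for 2120 of the 2711 members; 491 were in those of 1 replicate, 80 of 2, 14 of 3 and 6 of all 4. In replicate 1, 196 members (7.23%) were overlapped by the 1000 strongest nuclear peaks, against 6.56% of all autosomal pooled peaks. The counts were 191 (7.05%, against 7.05%) in replicate 2, 154 (5.68%, against 4.31%) in replicate 3 and 176 (6.49%, against 4.65%) in replicate 4. The share was near the autosomal level in replicates 1 and 2 and above it in replicates 3 and 4.

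Any peak of the relaxed lists overlapped 67.9%, 71.4%, 26.7% and 48.7% of the members in replicates 1 to 4, with the lowest share in replicate 3, whose list was the shortest. Peaks were found in all 4 relaxed lists at 183 members (6.75%), against 5.29% of the autosomal pooled peaks, and in none at 40. By pairs of replicates, 39 members were among the 1000 strongest of both 3 and 4, 36 of 1 and 4, and 27 of 1 and 3. The counts were 26 for 1 and 2, 16 for 2 and 4, and 14 for 2 and 3. Such pairs were not counted over all autosomal pooled peaks, so these counts have no baseline here. The pooled list was made from the same reads, so support by a replicate is not independent of the pooled ranking.

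In all, 3 other kinds of pooled peaks were set beside the members: 443 autosomal peaks in the promoter windows of 2 or more genes, 664 promoter peaks on X and 7090 autosomal peaks outside promoter windows. In replicates 1 to 4, 9.26%, 6.55%, 14.2% and 11.5% of the shared promoter peaks were overlapped by the 1000 strongest peaks. Support of the members was lower than that by 3.77 percentage points ± 3.90 (SD, n = 4), lower in 3 of 4 replicates (exact two-sided sign-flip permutation test, p = 0.25). Replicate 2 went the other way, by 0.499 points.

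Support of the X promoter peaks was 9.04%, 7.98%, 5.27% and 9.04%, and the members were lower by 1.22 points ± 1.27 (SD, n = 4), in 3 of 4 replicates (exact p = 0.25). Outside promoters, the autosomal peaks had 6.14%, 7.08%, 3.17% and 3.51%, and the members were higher by 1.64 points ± 1.37 (SD, n = 4), in 3 of 4 replicates (exact p = 0.25). With 4 replicates the smallest p that this test can give is 0.13, so no comparison here could pass 0.05. The mean differences were about as large as the spread between replicates. With a promoter window of 500 bp the members were higher than the X promoter peaks, by 0.203 points. The thresholded list held 8 of the 443 shared promoter peaks (1.81%, 95% exact interval 0.783 to 3.53), 9 of the 664 X promoter peaks (1.36%, 0.622 to 2.56) and 27 of the 7090 autosomal peaks outside promoters (0.381%, 0.251 to 0.554).

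**Figure D2:**
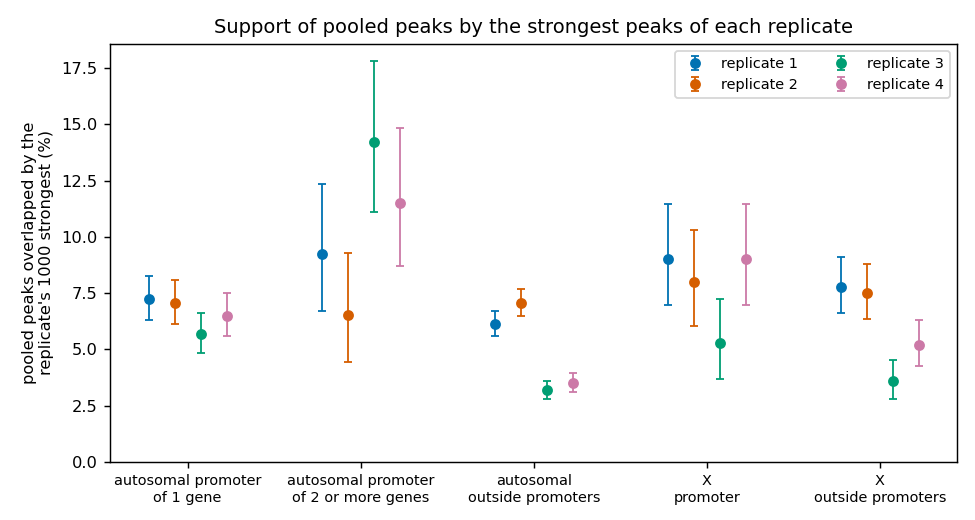
Share of the pooled peaks of each kind (horizontal axis) that the 1000 strongest nuclear peaks of a replicate overlap, in percent, with 1 point per replicate and bars for the 95% exact interval, which covers counting error over peaks only. Members (left) lie between 5.68% and 7.23%, while the shared promoter peaks range from 6.55% to 14.2%.

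The same kind of place can be counted in each replicate's own list, without the pooled ranking. Single-gene autosomal promoter peaks made up 21.4%, 21%, 27.5% and 26.8% of the 1000 strongest nuclear peaks of replicates 1 to 4. They made up 19.7%, 19.99%, 23.1% and 21.3% of the other nuclear peaks of those lists. The share was thus higher among the strong peaks in 4 of 4 replicates, by 3.14 points ± 2.12 (SD, n = 4), with an exact two-sided sign-flip permutation p = 0.13, which is 2 of the 16 sign patterns and the smallest possible. Replicates 3 and 4 differed by 4.35 and 5.49 points, and replicates 1 and 2 by 1.71 and 1.01. The mean was 1.65 points with the 2000 strongest peaks and 1.52 with a promoter window of 2000 bp.

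The summits lay at all distances in the window. The median was 362 bp upstream, 2199 summits (81.1%) were upstream of the nearest start of the gene and 512 at or after it, and 734 (27.1%) were within 300 bp upstream. Of the 100 strongest members 39 were within 300 bp upstream, and of the 21 thresholded members 10 were. The strong members were thus more often near the start.

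That difference was also present in the replicates' own lists. Among the 200 strongest single-gene autosomal promoter peaks of each list, 29.5%, 28%, 42.5% and 37% lay within 300 bp upstream in replicates 1 to 4. Among the other peaks of this kind the shares were 25.1%, 25.03%, 30.1% and 28.7%. The strong ones were higher in 4 of 4 replicates, by 7.03 points ± 4.26 (SD, n = 4; exact sign-flip permutation p = 0.13). This comparison was added after the distances had been seen, and gave 4.35 points with the 500 strongest peaks.

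**Figure D3:**
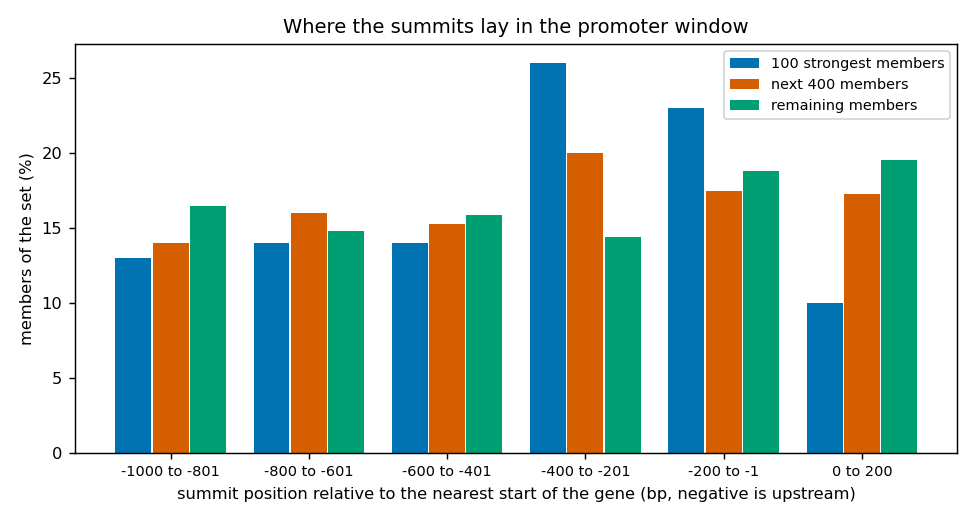
Share of the members in each 200 bp step of the window (horizontal axis: summit position relative to the nearest start of the gene, negative is upstream; the last step also includes the start itself), for the 100 strongest members, the next 400 and the remaining ones. Of the 100 strongest, 26 and 23 lie in the 2 steps from 400 bp upstream to the start and 10 after it, while the weakest set has 19.6% after the start.

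Bases under the summits were richer in G and C than the bases beside them. In 101 bp windows on the summit, the G+C content was 41.01% ± 8.26 (SD over 2711 members), and in equally wide windows centred 300 bp on each side it was 36.4% ± 6.20. It grew with the signal, from 40.5% in the 2211 members past the 500 strongest to 42.3% in the 400 next to the 100 strongest, 46.2% in those 100 and 50.6% in the 21 thresholded members, whose flanks had 34.6%. Among the sequences printed above, the summit windows of drap-1 and cbp-1 each had 59.4%, and that of cox-5A had 36.6%. Base composition is also known to affect how well a fragment is amplified and sequenced, and its part in these ranks was not tested.

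Each replicate's own list showed the same direction. In the 200 strongest single-gene autosomal promoter peaks of replicates 1 to 4, the summit windows had 43.8%, 40.2%, 40.6% and 42.03% G+C. The flanking windows had 37.1%, 37.5%, 35.9% and 36.4%. Summits were higher in 4 of 4 replicates, by 4.92 points ± 1.70 (SD, n = 4; exact sign-flip permutation p = 0.13). The rise was not limited to members: over all 12773 nuclear pooled peaks the summit windows had 41.1% and the flanks 36.9%, and the X promoter peaks had 42.2% and 36.0%.

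**Figure D4:**
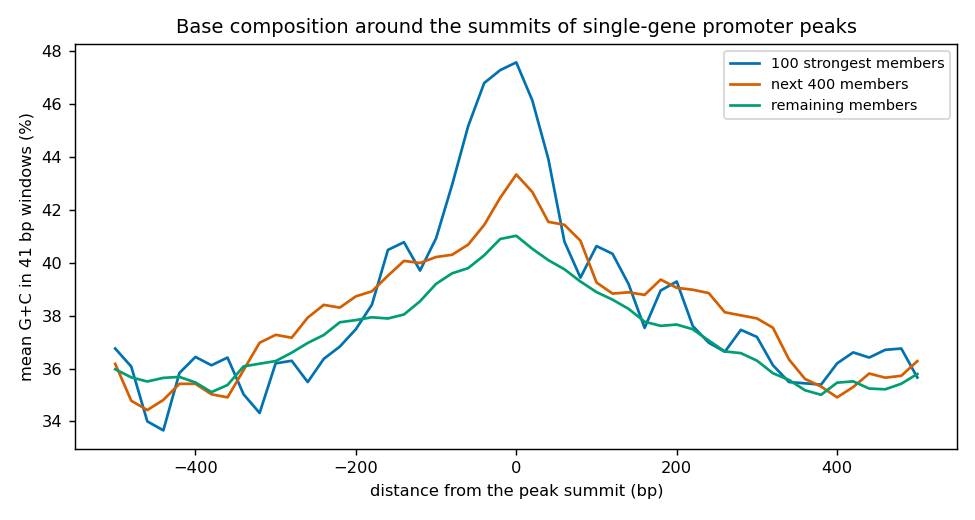
Mean G+C content in 41 bp windows (vertical axis, percent, not starting at 0) at distances from the summit, in 20 bp steps along the genome and not turned to the strand of the gene, for members grouped by pooled signal. At the summit the 100 strongest members reach 47.6%, against 43.3% for the next 400 and 41.02% for the remaining ones, and at 500 bp to either side the 3 lines lie between 35.7% and 36.8%.

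The words known for SIX-family proteins had much the same share under the summits as beside them. TGATAC, a SIX-type core, was in 81 of 2711 summit windows (2.99%) on either strand, in 2.62% of the flanking windows and in 3.32% of the summit windows of all nuclear pooled peaks. TCAGGTTTC, a site of the MEF3 type, was searched with up to 1 mismatch and was in 2.66% of the summit windows, 2.99% of the flanks and 2.72% of all nuclear summit windows. Among the 100 strongest members the counts were 3 for each word. A missing match says only that these letters are not within 50 bp of the summit.

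CTGCGTC showed a larger contrast between strong members and their flanks than the SIX-type words. Its test was chosen with earlier results of these data known, so the contrast is not independent evidence. It was in 79 summit windows of members (2.91%), in 1.25% of their flanking windows and in 2.10% of the summit windows of all nuclear pooled peaks, on either strand. Shared promoter peaks had 3.84% against 0.903% of flanks, and X promoter peaks 3.31% against 0.602%. Outside promoters the autosomal peaks had 1.83% against 0.994%, and the X peaks 1.07% against 0.295%. The word was thus not particular to the members. Its share grew with the signal, from 2.40% of the 2211 members past the 500 strongest to 4% of the next 400 members. It reached 10 of the 100 strongest (95% exact interval 4.90 to 17.6), where the flanks had 0.5%. The word is rich in G and C, and summit G+C rose over the same groups, from 40.5% to 46.2%. The part of base composition in these shares was not tested. In the sequences above it is the capital word of eelo-2 and ntl-11, which with Y39B6A.43 made 3 of the 21 thresholded members.

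In the replicates' own lists CTGCGTC was in 5%, 2%, 7% and 5.5% of the summit windows of the 200 strongest peaks of this kind, in replicates 1 to 4. Their flanks had 1%, 0.5%, 1.25% and 2.25%. Summits were higher in 4 of 4 replicates, by 3.63 points ± 1.76 (SD, n = 4; exact sign-flip permutation p = 0.13), and by 2.18 points with the 500 strongest. After Benjamini-Hochberg adjustment over the 7 comparisons tested with this permutation, the adjusted p was 0.219 for the 4 comparisons at 0.13 and 0.25 for the other 3.

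A different word stood out on reading the thresholded members. ACACGCT, chosen after the sequences had been seen, was in 5 of the 21 windows: cdc-48.1, rpl-3, Y39B6A.43, rpl-35 and cox-5A. It was in 0 of their 42 flanking windows, in 16 of the other 2690 members (0.595%) and in 0.658% of the summit windows of all nuclear pooled peaks, so it was rare below the top of the ranking. Among all 7-base words, AAACACG was in 6 of these windows, and AACACGC as well as ACGCAGA in 5; AAACACG and also AACACGC overlap the word ACACGCT, while ACGCAGA overlaps the reverse complement of CTGCGTC. In the 200 strongest peaks of this kind in each replicate, ACACGCT was in 2%, 1%, 3% and 2% of summit windows and in 0.75%, 0.5%, 0.5% and 0.75% of flanks. Of these 5 genes, cdc-48.1, rpl-3, rpl-35 and cox-5A ranked between 4014 and 9849 in replicate 2 and within 200 in the other replicates that had a peak.

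The next members with ACACGCT in order of signal were sco-1, pqn-87 and mrpl-28, at pooled ranks 395, 493 and 697. Only 2 members held both ACACGCT and CTGCGTC, 1 of them Y39B6A.43, and neither word contains the other. GAGAGAG was in 10 of the 100 strongest members and 3% of their flanks, and in 4.87% of all members, 2.19% of their flanks and 3.34% of all nuclear summit windows. In the 200 strongest peaks of each replicate it was in 6%, 2.5%, 6% and 10% of summit windows and in 4.75%, 2%, 1.5% and 4% of flanks. TATAAA was in 7.75% of member windows against 10.8% of flanks, with 6.99% in all nuclear summit windows. Over all members, GAGAGAG and TATAAA thus differed from the flanks by more percentage points than CTGCGTC, in opposite directions. TTTTCAG, a type of sequence found at splice acceptors, was in 8.56% against 9.81%, with 8.15% in all nuclear summit windows, and in 5 of the 100 strongest members against 13% of their flanks.

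Genes with a member were counted in 28 gene lists, and 2394 of the 17242 autosomal protein-coding genes (13.9%) had one. Glycolysis, the breakdown of glucose to pyruvate, had the highest share, with 7 of 16 genes (43.8%). Pan-neuronal genes followed with 7 of 19 (36.8%), body wall muscle with 12 of 33 (36.4%) and translation factors with 11 of 36 (30.6%). Lists of large families with few members were chemoreceptors with 92 of 1276 (7.21%), C-type lectins with 17 of 237 (7.17%), F-box and MATH proteins with 22 of 378 (5.82%) and histones with 1 of 68 (1.47%). Genes differ in how many annotated starts they have, and so in how much sequence the window covers. A gene whose only peaks lie in windows shared with another gene counts here as having no member. Shared peaks were not counted by list, so a low share, as for the histones, does not show that peaks were absent. Whether reads can be placed at single genes of the large families was not tested.

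A share of genes with a member says little of how strong the peaks were. The gene's strongest member was therefore also placed among the 2394 genes, from 0 for the weakest to 100 for the strongest, where all genes have a median of 50. Body wall muscle genes had a median of 61.8, pan-neuronal genes 40.2 and translation factors 45.4. In contrast glycolysis had 79.3, cytosolic ribosomal proteins 74.6 (16 of 81 genes), mitochondrial ribosomal proteins 87.1 (6 of 70) and the respiratory chain and ATP synthase 80.1 (8 of 45). The 500 strongest pooled peaks included a member of 109 of these 2394 genes (4.55%). Among them were 3 of the 16 cytosolic ribosomal protein genes and 3 of the 11 chromatin regulator genes with a member. The respiratory chain and ATP synthase list had 2 of 8 and the pan-neuronal list 2 of 7, and no other list had more than 1. A thresholded member was present at 21 of the 2394 genes (0.877%), so a short list is likely to have none.

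Members of the ribosome and of the respiratory chain beyond the thresholded list differed in their support. Besides rpl-3 and rpl-35, rps-21, of the small ribosomal subunit, had a peak at pooled rank 269 that ranked 56 and 127 in replicates 3 and 4 and was absent from replicates 1 and 2. The mitochondrial ribosomal protein gene mrps-28 (pooled rank 128) ranked 6, 11499, 1334 and 1347, high in replicate 1 only. The cox-5B peak (rank 207), in the 5′ UTR of that cytochrome c oxidase gene, ranked 4512, 6677, 4418 and 3306. It was thus outside the 1000 strongest peaks of every replicate and high only in the pooled list.

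Of the 3 strongest glycolysis members, ldh-1 alone was among the 1000 strongest peaks of a replicate. The ipgm-1 peak, at a phosphoglycerate mutase gene, ranked 5810, 2177, 5562 and 15120 in replicates 1 to 4, with its summit 164 bp after the start. At ldh-1, the lactate dehydrogenase gene, the ranks were 218, 6541, 10382 and 13154, and at aldo-2, an aldolase gene, 14272, 1988 and 2873 in replicates 1, 2 and 4. Of the 7 glycolysis genes, 0 had a thresholded member and 1 had a member in the 500 strongest pooled peaks, counts too small to set apart from the 0.877% and 4.55% of all genes with a member.

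The muscle and pan-neuronal lists, for tissues in which SIX-family factors are known to act, had 0 thresholded members among 12 and 7 genes, against 0.877% of all genes with a member, from which such short lists cannot be told apart. The strongest of the muscle list were unc-70, a beta-spectrin (ranks 740 and 2807 in replicates 1 and 2, none in the others), lev-11, a tropomyosin (2193, 11382 and 26484 in replicates 1, 2 and 4), and unc-68, the ryanodine receptor (12644 and 3177 in replicates 1 and 2). Of the pan-neuronal genes, snb-1, a synaptobrevin, ranked 71 in replicate 2 but 15361 and 7206 in replicates 1 and 3. The egl-21 peak, at a neuropeptide-processing carboxypeptidase gene, ranked 191 in replicate 4 and 26058 and 5376 in replicates 1 and 2. Each of these was among the 1000 strongest peaks of 1 replicate at most.

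The pharynx list had 5 of 26 genes with a member (myo-1, pha-4 and abu-8 the strongest), the intestine 10 of 60 (lys-1, lys-5 and asp-2), the germline 10 of 118 (pie-1, him-19 and cgh-1) and the collagens of the cuticle 25 of 147 (col-93, col-42 and col-94). Median positions were 64.4, 29.5, 39.5 and 52.7. Neuropeptides and insulins had 11 of 108 genes with a median of 24.9. These lists stand for tissues of the worm only through textbook markers, and no tissue can be read from a whole-worm peak.

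Among regulators, 40 of 247 nuclear hormone receptor genes (median 59.2), 13 of 73 homeobox genes (42.1), 5 of 28 helix-loop-helix genes (93.2) and 11 of 58 chromatin regulator genes (67.02) had a member. The helix-loop-helix gene hlh-11 ranked 24 and 16 in replicates 3 and 4 and 17255 and 7739 in replicates 1 and 2, and its window held CTGCGTC. The hypoxia factor gene hif-1 ranked 263, 6570, 8456 and 14765, and hlh-30, the TFEB homologue of autophagy and lysosomes, ranked 4793, 7645, 1736 and 425. The strongest homeobox genes were ceh-79, unc-62 and ceh-45, at pooled ranks 1583, 2196 and 3227. The Wnt, Notch and TGF-beta list had 12 of 60 genes (median 32.98), with sma-2, daf-5 and egl-20 the strongest.

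The remaining lists had shares on both sides of 13.9%. Chaperones and heat shock genes had 12 of 62 (median 42.3), with hsp-1, an Hsp70 family chaperone, at rank 153. Splicing factors had 7 of 41 (71.99), tubulins, actins and kinesins 7 of 31 (13.6), the aminoacyl-tRNA synthetases 4 of 32 (53.2), and Rab and Arf GTPases 3 of 27 (72.4). Detoxification enzymes had 20 of 201 (34.8), the proteasome 2 of 33 (57.8) and the histone his-37 stood at 97.8 in its list of 1. The medians of short lists rest on few genes.

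**Figure D5:**
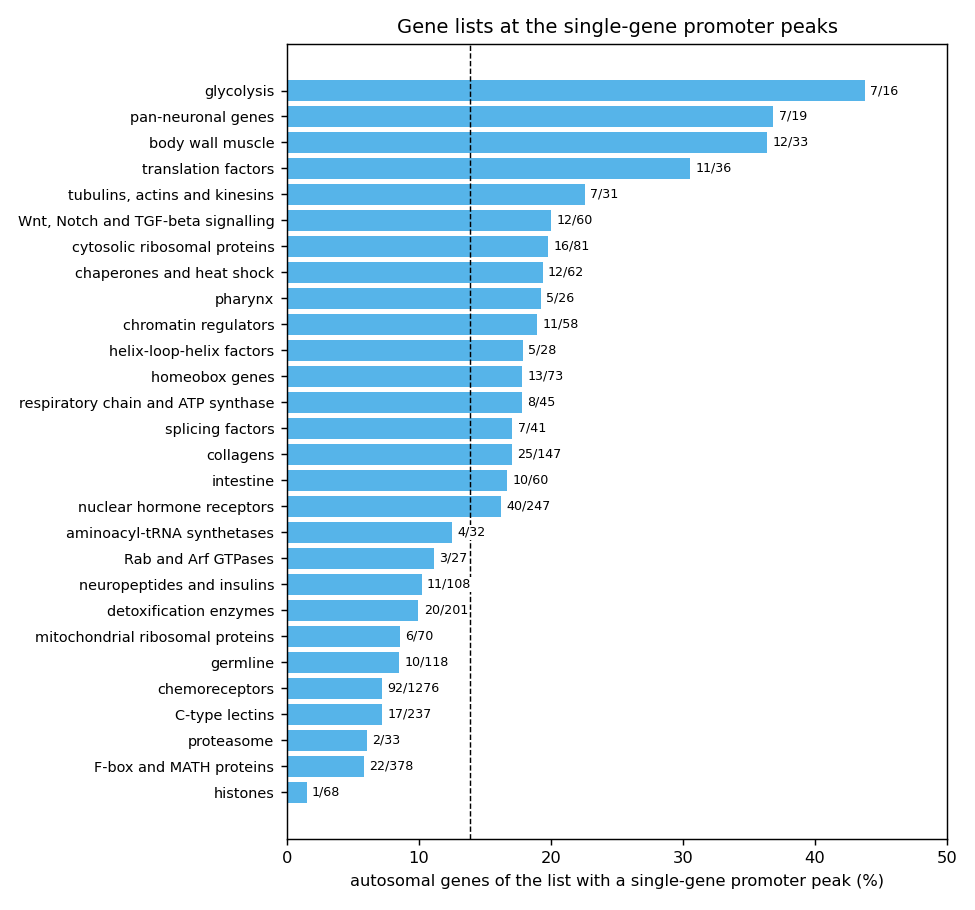
Share of the autosomal genes of each of 28 lists that have a single-gene promoter peak (horizontal axis, percent), with the count beside each bar; the dashed line marks 13.9%, the share of all autosomal protein-coding genes. Glycolysis (43.8%), pan-neuronal genes (36.8%) and body wall muscle (36.4%) have the longest bars and histones (1.47%) the shortest. Peaks in promoter windows shared between genes are not counted.

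Most genes had a single member. There were 2126 genes with 1 peak, 231 with 2, 27 with 3, 8 with 4 and 2 with 5. The genes with 5 were nurf-1, of the NURF chromatin remodeller, and tir-1, a TIR-domain protein of innate immunity, which have 16 and 11 annotated starts. Genes with 1 member had a median of 1 annotated start, genes with 2 or more a median of 3, and those with 4 or more a median of 7.5. The strongest peak of nurf-1 was at pooled rank 2935 and that of tir-1 at 3319, while at the 8 genes with 4 members it ranged from 294 at jun-1 to 2152 at egl-27.

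Members were spread over all 5 autosomes: 458 on I, 526 on II, 464 on III, 527 on IV and 736 on V. Between 13.3% (II) and 15.6% (III) of the protein-coding genes of a chromosome had one. Of the 21 thresholded members 5 were on I, 2 on II, 6 on III, 5 on IV and 3 on V. With each chromosome divided into 3 equal lengths, the middle one, where C. elegans autosomes are known to hold more conserved and widely expressed genes, contained 37% of the members, 48 of the 100 strongest (95% exact interval 37.9 to 58.2), 8 of the 21 and 38.1% of the genes.

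At the ends of the window, the members just inside were cest-1.2 (summit 1000 bp upstream, signal 18.2), T20G5.13 (999 bp, 22.04) and msp-64 (999 bp, 20.9). Just outside were peaks at W06H8.6 (1001 bp, signal 38.9), Y38E10A.8 (1002 bp, 20.1) and Y73F8A.12 (1002 bp, 18). At the other end, F54D5.7 and F46B3.8 were inside at 200 and 199 bp downstream with signals of 22.4 and 22.4, and era-1 and fbxa-98 were outside at 201 bp with 16.9 and 16.4. The window thus cuts through a continuous run of peaks.

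Neither gene of the genotype had a member: the rule found 0 peaks for unc-39 (chrV:14373074-14375881) and 0 for unc-119 (chrIII:10902641-10908935).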

How the data were processed

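ChIP-seq of UNC-39 was analysed from deposited peak lists in narrowPeak format for 4 biological replicates of 1 group. Per the deposited README files, the authors made a relaxed list for each replicate, a relaxed list from the pooled alignments of all 4 with a control, and a thresholded list by the irreproducible discovery rate, which compares ranks between replicates. Aligner, caller and threshold were not given in the sources used here. Signal is a value per peak deposited by the authors on a scale not stated, so it was used only within a list. The q-value column was read as −log10 by the convention of the format, as deposited by the authors. Read depth is unknown. Lists on ce10 were not used. No pooled peak ended beyond a WBcel235 chromosome (0 found).

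Transcript starts came from Ensembl release 115. Overlap meant at least 1 bp, and replicate ranks covered nuclear peaks. Differences within replicates were tested by exact two-sided sign flips over the 4 replicates; the p-values measure the spread between these replicates. Intervals are exact (Clopper-Pearson, 95%) and cover counting error over peaks only. Words were searched on both strands in 101 bp summit windows and in windows centred 300 bp away. Gene lists were matched by symbol and corrected where a symbol pattern had taken in unrelated genes. Named genes were those of the 25 strongest members, thresholded members, members among the 1000 strongest peaks of all 4 replicates, up to 3 per list, and unc-39 and unc-119; others were chosen after their values were seen. The peak at 1 further gene is not reported here. The members, lists and tests were chosen with earlier results of these data known. Alternatives varied the promoter window, the number of strongest peaks, the overlap, the sequence window and the replicates used. The functions were tested on simulated data. Python 3.11.15 with pandas 2.3.3, NumPy 2.4.6, SciPy 1.17.1 and matplotlib 3.10.9 was used.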

Additional observations from a re-analysis of the deposited data

Results flagged for a closer look

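By Dixon's test over 4 values, 1 replicate's rank lay far from the other 3 at 8 of the 21 thresholded members. The test covered 36 groups of 4 values and needs a rank in every replicate, which 15 of the 21 members had. Its usual rate of about 1 such result in 20 groups assumes normally distributed values. Ranks are strongly skewed, so that rate does not hold for them and the flags are a description only. In 7 of the 8 the distant replicate was replicate 2, always with the lower placed peak. The ranks in replicate 2 were 368 at H41C03.3, 9849 at cdc-48.1, 5348 at rpl-3, 8108 at rpl-35, 3560 at Y39E4B.6, 12683 at cbp-1 and 22190 at tomm-20. At egg-5 the distant value was 152 in replicate 4. None of the shares and differences given per replicate was so far from the others.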

How the results depend on the processing

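The number of members was 1863 with a window of 500 bp upstream, 3759 with 2000 bp and 2360 with a window ending at the start. The share of members in the thresholded list was 0.258% for the stronger part of that list and 4.13% when the 500 strongest pooled peaks were taken in its place, both by construction; it was 0.590% without members that overlap another pooled peak and 0.685% without those near a tRNA, snRNA, snoRNA or rRNA gene. The difference in support from X promoter peaks reversed to 0.203 points with a promoter window of 500 bp, and the cause was not tested. Leaving out 1 replicate at a time kept the direction of all 7 tested differences, none of which could reach a p under 0.25 with 3 replicates. The difference from shared promoter peaks then ranged from -5.20 to -2.18 points (the latter without replicate 3) and that from X promoter peaks from -1.76 to -0.778 (the latter without replicate 4). Members among the 1000 strongest peaks of all 3 replicates left were 6, 16, 9 and 7 without replicates 1, 2, 3 and 4, against 20 in 3 or more of 4. The settings without overlapping or RNA-gene members, and those for the near-start comparison and for support by 3 or more replicates, were chosen after seeing the data. With 1 group, no paired analysis was needed. Depth, the transgene's copy number and the control limit every value and were not measured here.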
